A study of Mus musculus with 22 samples.

Results

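The inguinal white fat of cold-exposed mice lacking PPARα was compared with that of cold-exposed wild-type mice, on 10 of the 22 arrays of the series. The arrays were chosen by genotype and housing temperature alone: 5 null mice and 5 wild-type mice at 5 °C, 1 mouse per array. All were males on a C57BL/6 background, 3 to 4 months old and fed chow, and all spent 5 weeks at 28 °C, 1 week at 21 °C and then 10 days at 5 °C. The remaining arrays, 6 null and 6 wild-type mice that stayed at 28 °C, served as a second set of mice for the same genotype contrast. They entered the same fit, so both contrasts share 1 estimate of the spread per gene. The null allele is carried in every tissue. Per the labels both lines came from Jackson Laboratories, backcrossed to C57Bl/6J over 10 generations, and were bred on at the study's own facility. Genes on chromosome 15, which holds Ppara, were kept apart, because sequence linked to the null allele comes with it. Linkage and loss of the receptor cannot be told apart there. On the other chromosomes, a difference between the lines and loss of the receptor cannot be told apart either. The comparison asks how this depot differs without the receptor after 10 days of cold.

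PPARα is a nuclear receptor activated by fatty acids. It pairs with the retinoid receptor RXR on direct repeats in DNA and switches on genes of fatty acid uptake, mitochondrial and peroxisomal oxidation and ketone production, above all in liver. In white fat, cold exposure and noradrenaline induce beige adipocytes, which burn fatty acids through the uncoupling protein Ucp1. The related receptor PPARγ, which recognises the same repeats, is the main PPAR of adipocytes.

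Few genes differed between null and wild-type fat in the cold. Of 22180 genes with a symbol of their own, 33 passed the test (0.149%; limma, adjusted p under 0.05 by Benjamini-Hochberg), 9 higher (0.0406%) and 24 lower (0.108%) in null mice. On chromosome 15 it was 13 of 845 genes (1.54%), 4 higher (0.473%) and 9 lower (1.07%). On all other chromosomes it was 20 of 21335 (0.0937%), 5 higher (0.0234%) and 15 lower (0.0703%). Differences are null minus wild type on the log2 scale, so 1 unit is a 2-fold change in signal. Only 4 of the 33 were higher and 6 lower by more than 2-fold. With the 10 cold arrays fitted without the 28 °C arrays, 5 genes rather than 15 passed as lower outside chromosome 15. That count was 9 without wild-type replicate 5. On chromosome 15 the count of lower genes was 5 rather than 9 without wild-type replicate 4.

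No marker of the tissue's cell types passed. The mean log2 signal of 7 white-adipocyte identity genes, such as Adipoq and Plin1, ran from 10.37 to 10.65 in null and from 10.22 to 10.58 in wild-type pads. None of the 9 cell type lists had a called gene, where 0.149% of all genes passed, and lists this short would seldom hold one. The 95% interval lay within 1 log2 unit of 0 for 1 of 19 skeletal muscle and 0 of 13 lymphocyte markers, where 97.7% of all genes had such an interval. Muscle varied from pad to pad in both genotypes: the mean of 19 skeletal muscle markers was 6.94 ± 1.21 in null and 7.33 ± 1.47 in wild-type pads (SD, n = 5 each), highest in null replicate 1 and wild-type replicate 2, and ran from 5.92 to 9.57 over the 10 pads. The mean of 13 B and T lymphocyte markers ran from 4.03 to 6.93 in null and from 4.17 to 5.94 in wild-type pads, highest in null replicate 3. Epithelial markers were dim in all pads (3.44 to 3.95 on average). In whole tissue, fewer cells of a type and less RNA per cell cannot be told apart.

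**Figure D1:**
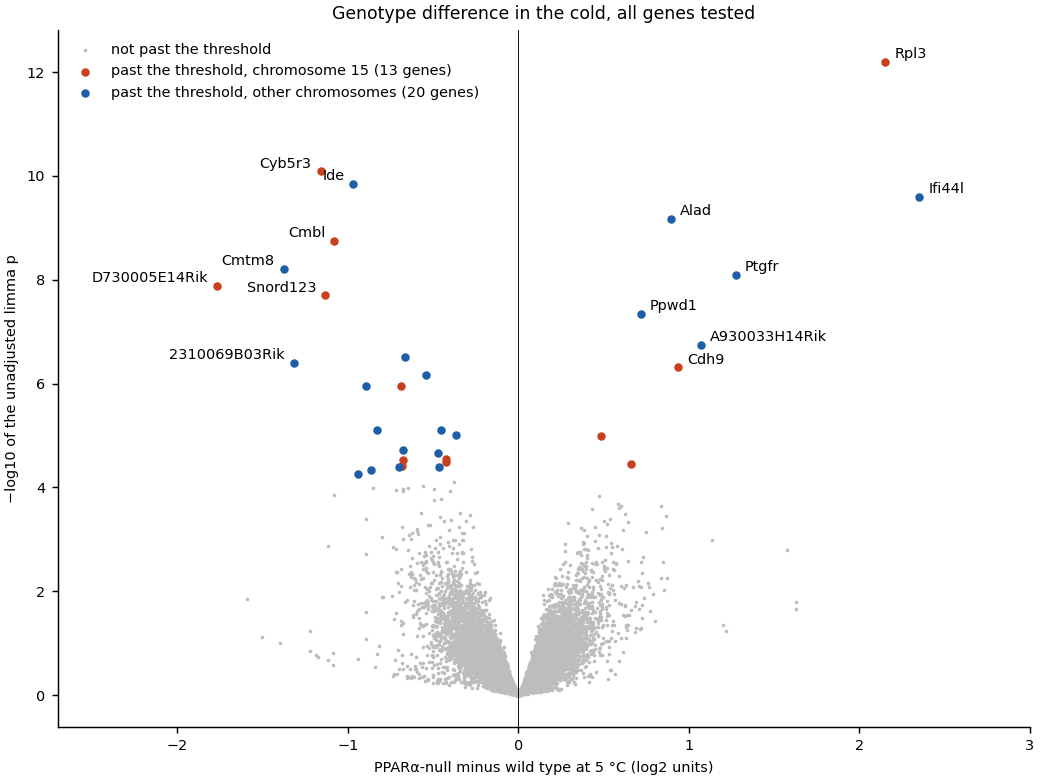
Genotype difference of every gene at 5 °C (null minus wild type, log2 units, horizontal axis) against −log10 of its unadjusted p from limma (vertical axis), with 5 mice per genotype. Coloured points are the 33 genes that passed, 13 on chromosome 15 and 20 elsewhere. Rpl3 and Ifi44l lie far to the right, and 24 of the 33 called genes lie to the left, lower in null mice.

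The targeted gene itself did not separate the groups. The single Ppara probe set read 6.66, 5.99, 5.77, 5.99 and 7.10 log2 units in the 5 null mice and 6.98, 6.48, 6.88, 6.13 and 6.50 in the 5 wild-type mice. The groups overlapped, and the highest array of all was a null mouse. The difference was −0.29 (SE 0.24, 95% interval −0.79 to 0.20, adjusted p = 0.895). The sources used here do not say whether its probes target the disrupted stretch, so this signal does not check the genotype. Ucp1, the beige-fat marker, averaged 12.45 ± 0.13 in the null and 12.40 ± 0.08 in the wild-type group (SD, n = 5 each), a difference of 0.05 (95% interval −0.48 to 0.58, adjusted p = 0.988). That interval takes its spread from all 4 groups, and at 28 °C Ucp1 ran from 4.50 to 6.47. Nnt, a mitochondrial transhydrogenase partly deleted in C57BL/6J mice, was 0.26 higher in null mice (SE 0.08) and did not pass (adjusted p = 0.360).

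Outside chromosome 15, 5 genes were higher in null mice. Ifi44l, an interferon-induced gene on chromosome 3, read 4.51, 4.35, 4.54, 4.26 and 3.99 in null mice and 2.32, 1.92, 2.15, 1.85 and 1.65 in wild-type mice. Every null array was above every wild-type array. The difference was 2.35 (SE 0.21, adjusted p = 1.40e-06), 5.11-fold on the signal scale. The wild-type mean of 1.98 lay below the arrays' lower quartiles (2.94 to 3.05 over the 22 arrays), close to background, so the fold is uncertain. Ptgfr, the prostaglandin F receptor, is the next tested gene after Ifi44l on the chromosome. It read 5.79, 6.38, 6.32, 6.02 and 6.01 in null mice and 4.75, 4.71, 4.63, 4.87 and 5.19 in wild-type mice, again without overlap. Its difference was 1.27 (SE 0.14, adjusted p = 2.19e-05), while Adgrl4 on the other side of Ifi44l, at 0.18 (adjusted p = 0.828), and Gipc2 beyond Ptgfr, at 0.05 (adjusted p = 0.965), did not pass.

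The other interferon genes did not share the size of the Ifi44l difference. Of 21 measured interferon response genes, Ifi44l alone was called. The median of the list was 0.06, against 0.00 for all genes, with 12 above and 9 below 0. Ifit1, an interferon-induced protein that binds viral RNA, came next. It read 6.31, 6.31, 6.37, 6.02 and 6.21 in null mice and 5.73, 5.83, 5.71, 5.63 and 6.12 in wild-type mice, a difference of 0.44 with adjusted p = 0.416. Its groups overlapped through null replicate 4 and wild-type replicate 5. Of the list, 3 members had an unadjusted p under 0.05, all higher in null mice, where 6.65% of all genes did in either direction.

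To show the sequence upstream of the neighbours Ifi44l and Ptgfr, the 250 bases before each RefSeq transcription start (GRCm38.p6) are given here in the direction of the gene. Ifi44l lies on the minus strand at chr3:151762892-151763141 and Ptgfr on the minus strand at chr3:151837529-151837778. The interferon-stimulated response element, written as GAAA, any 2 bases and GAAA again, was searched on both strands, a choice made after the values were seen. In windows of 300 bases reaching 50 bases past the start, it matched 657 of 16990 genes (3.87%) and 9 of 14 interferon response genes (64.3%). Neither Ifi44l nor Ptgfr held a match, so no letters are in capitals. A match is not a binding site, and a window without these letters says nothing of elements elsewhere.
Ifi44l: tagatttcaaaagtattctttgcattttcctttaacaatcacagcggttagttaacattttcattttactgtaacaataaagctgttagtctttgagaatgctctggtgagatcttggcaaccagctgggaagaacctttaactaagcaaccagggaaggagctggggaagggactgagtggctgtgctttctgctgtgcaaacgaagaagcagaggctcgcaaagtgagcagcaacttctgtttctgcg
Ptgfr: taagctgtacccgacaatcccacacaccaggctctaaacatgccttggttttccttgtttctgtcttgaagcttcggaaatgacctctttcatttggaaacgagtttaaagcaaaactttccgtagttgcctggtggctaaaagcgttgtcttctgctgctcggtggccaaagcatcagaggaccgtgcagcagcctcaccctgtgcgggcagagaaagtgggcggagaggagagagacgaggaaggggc

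Alad, on chromosome 4, encodes an early enzyme of heme synthesis. It read 8.77, 8.96, 8.64, 8.53 and 8.73 in null mice and 7.86, 7.69, 7.94, 7.86 and 7.79 in wild-type mice. The groups lay apart by more than their own ranges, and the difference was 0.90 (SE 0.09, adjusted p = 2.94e-06). Its neighbour Hdhd3 was 0.84 higher in null mice without passing (adjusted p = 0.185), and Pole3 on the other side was at −0.01. A930033H14Rik, a protein-coding gene on chromosome 10, was at 6.63 ± 0.28 in null and 5.56 ± 0.14 in wild-type mice (SD, n = 5 each), 1.07 higher (adjusted p = 3.31e-04). Ppwd1, a peptidyl-prolyl isomerase of the spliceosome encoded on chromosome 13, was at 7.76 ± 0.09 and 7.04 ± 0.13 (SD, n = 5 each), 0.72 higher (adjusted p = 9.21e-05). For both genes the lowest null array was above the highest wild-type array.

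The 15 lower genes outside chromosome 15 included a protease, mitochondrial proteins and long noncoding RNAs. Ide, the insulin-degrading enzyme on chromosome 19, read 9.10, 8.78, 8.81, 9.06 and 8.99 in null mice and 9.97, 9.90, 9.86, 9.87 and 9.99 in wild-type mice. The 2 groups were apart and each was tight, with a difference of −0.97 (SE 0.08, adjusted p = 1.06e-06), so that null signal was 51.1% of wild type. The tested gene just before Ide, the long noncoding RNA 4931408D14Rik, was lower too, at 6.12 ± 0.13 in null and 6.94 ± 0.26 in wild-type mice (SD, n = 5 each; −0.83, adjusted p = 0.00876). Kif11, the gene after Ide, was at 0.00.

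Cox7c, a small subunit of cytochrome c oxidase on chromosome 13, read 4.40, 4.47, 4.53, 4.49 and 4.63 in null mice and 5.89, 5.45, 5.30, 4.84 and 5.50 in wild-type mice. Wild-type replicate 4 came nearest to the null mice, and the groups did not overlap. The difference was −0.89 (SE 0.13, adjusted p = 0.00137), and the call was lost when the cold arrays were fitted alone. The null values lay close to or below the arrays' medians (4.63 to 4.77 over the 22 arrays), so the signal was dim. How well this probe set reads the gene was not tested. Cox7c was the only called member of 43 respiratory chain and ATP synthase genes, whose mean signal was 9.16 in null and 9.23 in wild-type mice. The median of that list was −0.04 and 40 of the 43 had a 95% interval within 0.5 log2 units of 0, as did 71.6% of all genes. Nfu1, a scaffold for mitochondrial iron-sulfur clusters on chromosome 6, was at 7.12 ± 0.16 in null and 7.59 ± 0.09 in wild-type mice (SD, n = 5 each; −0.47, adjusted p = 0.0200).

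Nos3, the nitric oxide synthase of endothelium, on chromosome 5, read 6.77, 7.22, 6.84, 6.88 and 7.08 in null mice and 7.71, 7.62, 7.66, 7.39 and 7.77 in wild-type mice. The highest null array fell 0.17 below the lowest wild-type array. The difference was −0.68 (SE 0.12, adjusted p = 0.0182). None of 12 endothelial markers such as Pecam1 and Cdh5 passed, their median was −0.02, and their mean signal ran from 8.25 to 8.56 in null and from 8.31 to 8.56 in wild-type pads. The pseudogene Gm6745, 4 tested genes away from Nos3, was lower as well (−0.70, adjusted p = 0.0291), while the gene directly before Nos3, Kcnh2, at −0.36, and the gene directly after it, Atg9b, at 0.13, did not pass. Ccdc149, a coiled-coil protein gene elsewhere on chromosome 5, was at 4.50 ± 0.43 in null and 5.37 ± 0.20 in wild-type mice (SD, n = 5 each; −0.87, adjusted p = 0.0320).

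Of the 20 called genes outside chromosome 15, 7 lay on chromosome 9, and all 7 were lower in null mice. That is 0.554% of its tested genes, against 0.0937% outside chromosome 15. For these genes too, a difference between the lines and loss of the receptor cannot be told apart. In the order of the 1263 tested genes of that chromosome they stood between places 1123 and 1253. Cmtm8, a membrane protein of the chemokine-like factor family, read 3.85, 3.76, 3.92, 3.74 and 4.17 in null mice and 5.23, 4.91, 5.33, 5.30 and 5.54 in wild-type mice. The gap between the groups was 0.74 log2 units, and the difference was −1.37 (SE 0.15, adjusted p = 1.97e-05). Stt3b, a catalytic subunit of the oligosaccharyltransferase that attaches sugars to new proteins, was 3 tested genes away, at −0.54 (adjusted p = 9.32e-04). Lars2, the mitochondrial leucyl-tRNA synthetase, was at −0.66 (adjusted p = 5.32e-04), and Sacm1l, a phosphoinositide phosphatase, at −0.36 (adjusted p = 0.0104). Fyco1, an adaptor for transport of autophagosomes, was at −0.45 (adjusted p = 0.00876), and Lrrfip2 at −0.47 (adjusted p = 0.0291). Clec3b, which encodes the secreted plasminogen-binding protein tetranectin, was the weakest call of all 33, at −0.94 (SE 0.19, adjusted p = 0.0373). Genes beside several of these did not pass: Exosc7 and Cdcp1 beside Clec3b were at 0.00 and 0.01, and Limd1 between Lars2 and Sacm1l was at −0.01.

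Clec3b marked the edge of the test. It read 6.75, 5.91, 6.52, 6.56 and 5.81 in null mice and 7.16, 7.42, 7.26, 7.08 and 7.34 in wild-type mice. Null replicates 2 and 5 were the lowest arrays, and the groups did not overlap. Its call held in 8 of the 22 fits that left out 1 array, with adjusted p of up to 0.137 without null replicate 5. Its adjusted p was 0.200 with the cold arrays fitted alone, 0.0894 with a replicate block, 0.0523 with the muscle marker mean as a covariate and 0.0501 with the lymphocyte marker mean. The first gene past the threshold, a vomeronasal receptor, had adjusted p = 0.0521, and the next, Raver2, had 0.0597. Other calls were fragile too. Those of Nos3, Nfu1, Ccdc149, Lrrfip2, Eif3l, Ttc38 and Sema5a were lost with the cold arrays alone and with the replicate block. They held in 17, 16, 15, 15, 16, 14 and 16 of the 22 fits that left out 1 array. Ift27, Cyp2d22 and Gm6745 held in 15, 17 and 17 of these and were lost with the cold arrays alone. Cox7c, Fyco1 and Sacm1l were lost only with the cold arrays alone.

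**Figure D2:**
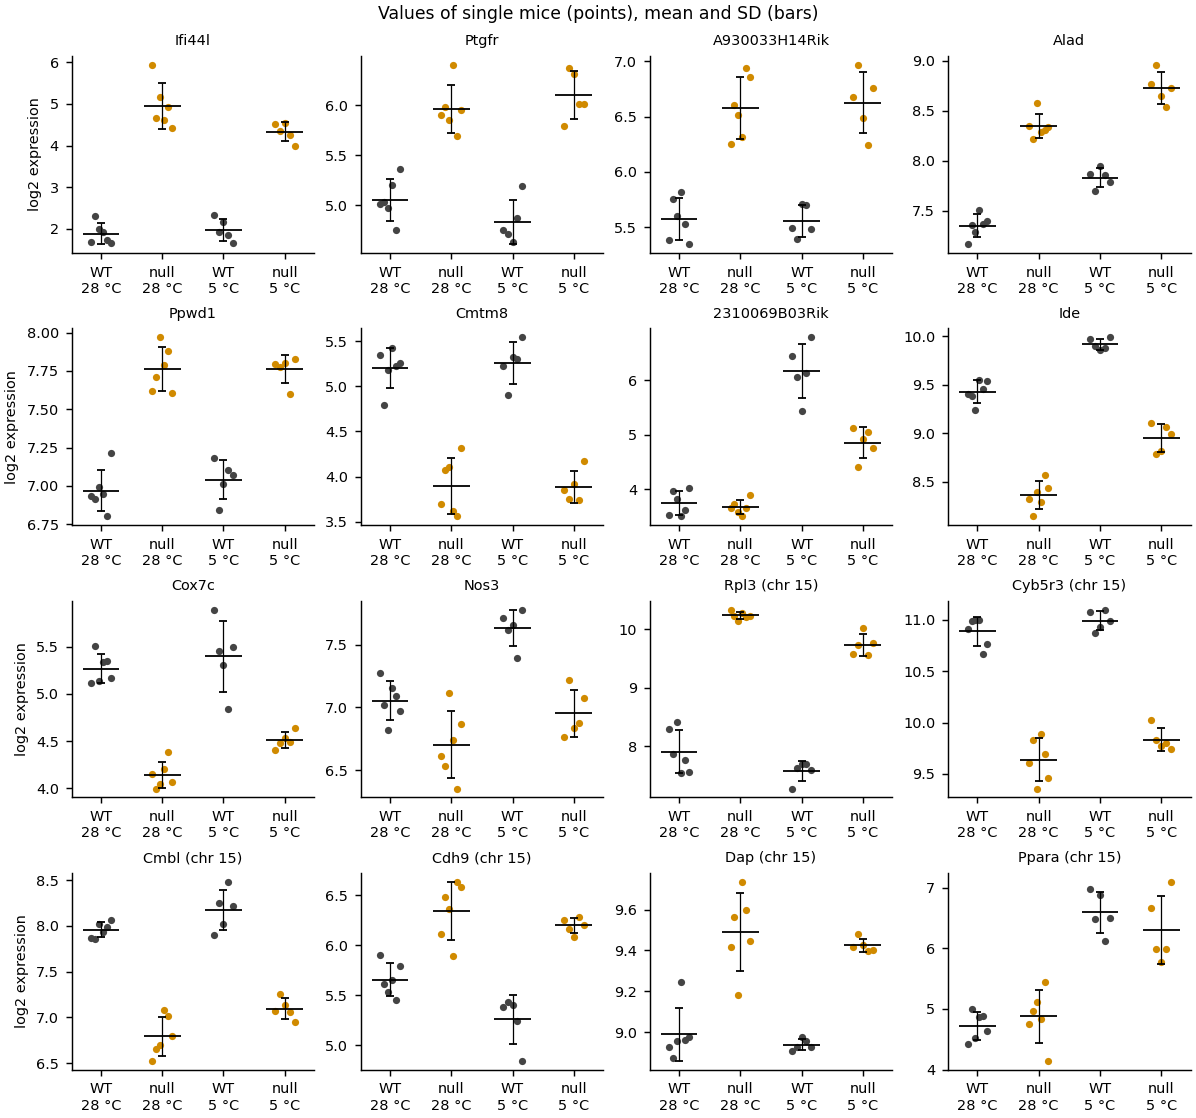
Log2 expression of 15 called genes and of Ppara (vertical axes) in each mouse, by genotype and temperature (5 mice per group at 5 °C and 6 at 28 °C). Points are mice and bars the mean and SD. In the cold the null and wild-type points do not overlap for any of the 15, and they do for Ppara.

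The long noncoding RNA 2310069B03Rik, on chromosome 6, had the largest difference after Cmtm8 among the lower genes outside chromosome 15. It read 5.12, 4.41, 4.93, 5.06 and 4.75 in null mice and 6.44, 6.06, 5.43, 6.14 and 6.79 in wild-type mice. Wild-type replicate 3 came within 0.31 of the highest null mouse, and the groups did not overlap. The difference was −1.32 (SE 0.18, adjusted p = 6.24e-04), a null signal of 40.2% of wild type. The call was lost when the cold arrays were fitted alone (adjusted p = 0.114). In the order of tested genes it stands between Hk2, the hexokinase of insulin-sensitive tissue, and the semaphorin Sema4f. Those 2 were at 0.00 and −0.07, and none of the 10 nearest tested genes passed. At 28 °C the RNA was dim in both genotypes, from 3.51 to 3.90 in null and from 3.50 to 4.03 in wild-type mice. Its 250 bases upstream of the RefSeq start (GRCm38.p6, chr6:82881854-82882103, minus strand), given because this RNA had the smallest p of the genotype by temperature term, read as follows.
2310069B03Rik: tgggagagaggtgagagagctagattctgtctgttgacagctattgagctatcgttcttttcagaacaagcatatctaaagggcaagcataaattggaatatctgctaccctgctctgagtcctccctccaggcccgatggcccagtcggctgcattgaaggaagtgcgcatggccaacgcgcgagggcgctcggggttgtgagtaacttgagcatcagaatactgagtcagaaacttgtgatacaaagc

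On chromosome 15 the share of called genes was 1.54%, and the calls lay mainly on one side of Ppara. Of the 845 tested genes there, 571 come before Ppara and 273 after it, and 12 of the 13 called genes lay before it. The 13 stretched from 501 tested genes before Ppara to 3 after it, and 7 of them were among the 401 genes within 200 places. The nearest, Ttc38, a tetratricopeptide repeat gene, was at −0.43 (adjusted p = 0.0267). The genes between it and Ppara, Cdpf1 and Pkdrej, did not pass. The median over the chromosome was 0.02, with 456 of 845 genes above 0, so the chromosome as a whole was not shifted.

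**Figure D3:**
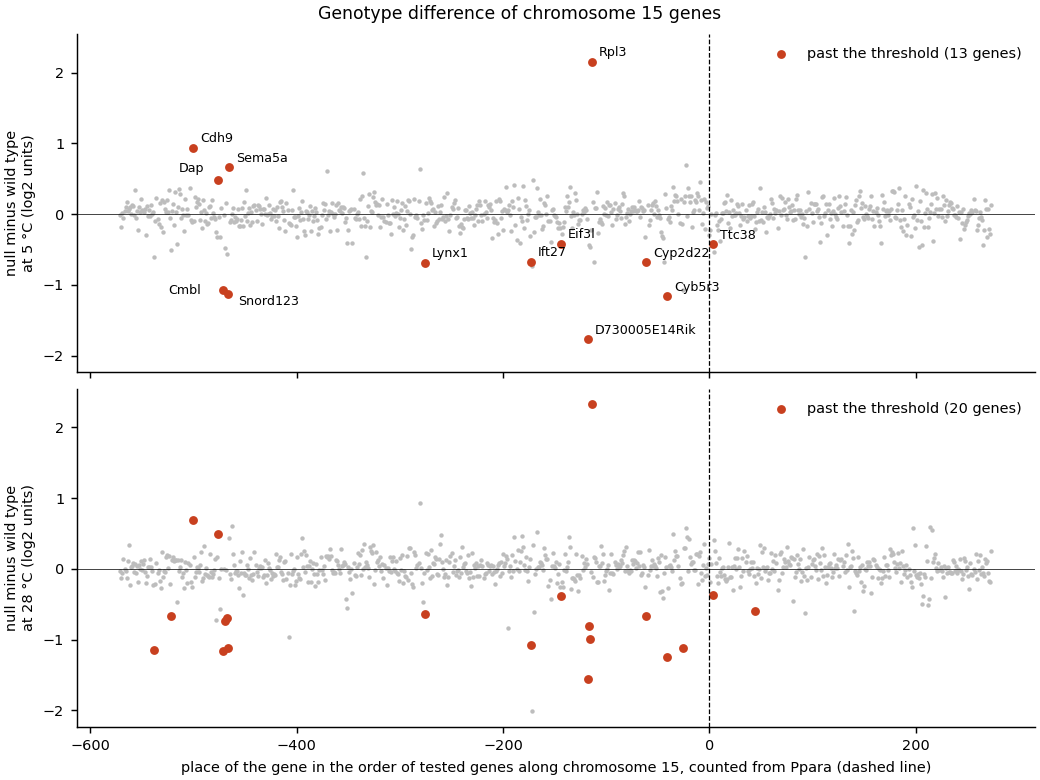
Genotype difference (null minus wild type, log2 units) of the 845 tested genes of chromosome 15 at 5 °C (upper panel) and 28 °C (lower panel), in order along the chromosome and counted in genes from Ppara (dashed line). Called genes are coloured, 13 at 5 °C and 20 at 28 °C, and at 5 °C 12 of the 13 lie to the left of Ppara.

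The largest difference on the chromosome was in Rpl3, a protein of the large ribosomal subunit. Its brightest probe set read 9.57, 9.73, 10.01, 9.56 and 9.77 in null mice and 7.28, 7.62, 7.70, 7.69 and 7.59 in wild-type mice. The groups were 1.86 log2 units apart, and the difference was 2.15 (SE 0.14, adjusted p = 1.41e-08), 4.44-fold. The other 2 probe sets for Rpl3 went the other way, at −0.20 and −0.25, so this change belongs to 1 probe set and is uncertain for the gene. Ribosomal protein genes have many near-identical copies, which an array can read together. Averaged over the 3 probe sets the difference was 0.57 (adjusted p = 0.0137).

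Enzymes are encoded by 3 of the 9 lower genes on chromosome 15. Cyb5r3, the NADH reductase of cytochrome b5, read 10.03, 9.83, 9.77, 9.80 and 9.74 in null mice and 11.07, 10.87, 10.94, 11.10 and 10.99 in wild-type mice. Each group spanned less than the gap between them, and the difference was −1.16 (SE 0.10, adjusted p = 8.97e-07). Cmbl, a hydrolase, read 7.07, 7.26, 7.14, 7.06 and 6.95 against 7.90, 8.25, 8.02, 8.48 and 8.21, a difference of −1.08 (adjusted p = 6.64e-06). The cytochrome P450 Cyp2d22 was at 6.74 ± 0.30 in null and 7.42 ± 0.18 in wild-type mice (SD, n = 5 each; −0.68, adjusted p = 0.0291). It belongs to a family of near-identical genes, so its probes may read relatives too.

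The other lower genes on chromosome 15 had varied roles. The long noncoding RNA D730005E14Rik, 4 tested genes from Rpl3, read 3.52, 2.82, 3.11, 4.00 and 3.24 in null mice and 5.03, 5.04, 5.22, 5.01 and 5.21 in wild-type mice. Null replicate 4 was the closest to wild type, still 1.02 below it, and the difference was −1.77 (adjusted p = 3.19e-05). Lynx1, a modulator of nicotinic acetylcholine receptors, was at −0.69 (adjusted p = 0.00137), and Ift27, a part of the transport system of cilia, at −0.67 (adjusted p = 0.0250). Eif3l, a subunit of translation initiation factor 3, was at −0.42 (adjusted p = 0.0250).

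A pair of neighbours moved in opposite directions. The small nucleolar RNA Snord123, named after its values were seen because it is 1 of the 13, was at 5.58 ± 0.22 in null and 6.71 ± 0.21 in wild-type mice (SD, n = 5 each; −1.13, adjusted p = 4.42e-05). The next tested gene, the axon guidance gene Sema5a, read 6.98, 7.32, 6.75, 6.68 and 7.05 in null mice and 6.17, 6.46, 6.48, 6.29 and 6.08 in wild-type mice, 0.66 higher (adjusted p = 0.0284). The lowest null mouse was above the highest wild-type mouse by 0.21. Cdh9, a cadherin, was 0.94 higher (adjusted p = 7.15e-04), and Dap, a negative regulator of autophagy, 0.49 higher (adjusted p = 0.0105). For Dap the null mice ran from 9.40 to 9.48 and the wild-type mice from 8.91 to 8.98, so a small difference was clear against the spread.

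The same genotype contrast in the mice kept at 28 °C took its differences from other arrays. The spread per gene was estimated once for both contrasts, which favours calls at both temperatures for genes with a small spread. The overlap of calls is therefore not independent. There 43 of 22180 genes passed (0.194%), 20 on chromosome 15 (2.37%) and 23 elsewhere (0.108%). Of the 33 genes called at 5 °C, 26 were also called at 28 °C, which is 78.8% of the first list and 60.5% of the second, and all 26 had the same sign. All 33 kept their sign at 28 °C. Outside chromosome 15 the overlap was 14 genes, 70.0% of the 20 and 60.9% of the 23. The median ratio of the 28 °C difference to the 5 °C difference was 0.95 over the 33 genes, from 0.06 for 2310069B03Rik to 1.60 for Ift27. Over all 22180 genes the 2 differences had r = 0.233, a description across genes, which are not independent replicates.

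Several of the genes with large differences in the cold also differed at 28 °C. Ifi44l was 2.35 higher in the cold and 3.06 at 28 °C, Ptgfr 1.27 and 0.91, Alad 0.90 and 1.00, and Ppwd1 0.72 and 0.79. Ide was at −0.97 and −1.07, Cmtm8 at −1.37 and −1.31, and Cox7c at −0.89 and −1.13. On chromosome 15 Rpl3 was at 2.15 and 2.32, Cyb5r3 at −1.16 and −1.25 and Cmbl at −1.08 and −1.16. All of these passed at both temperatures, and their groups did not overlap at either.

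**Figure D4:**
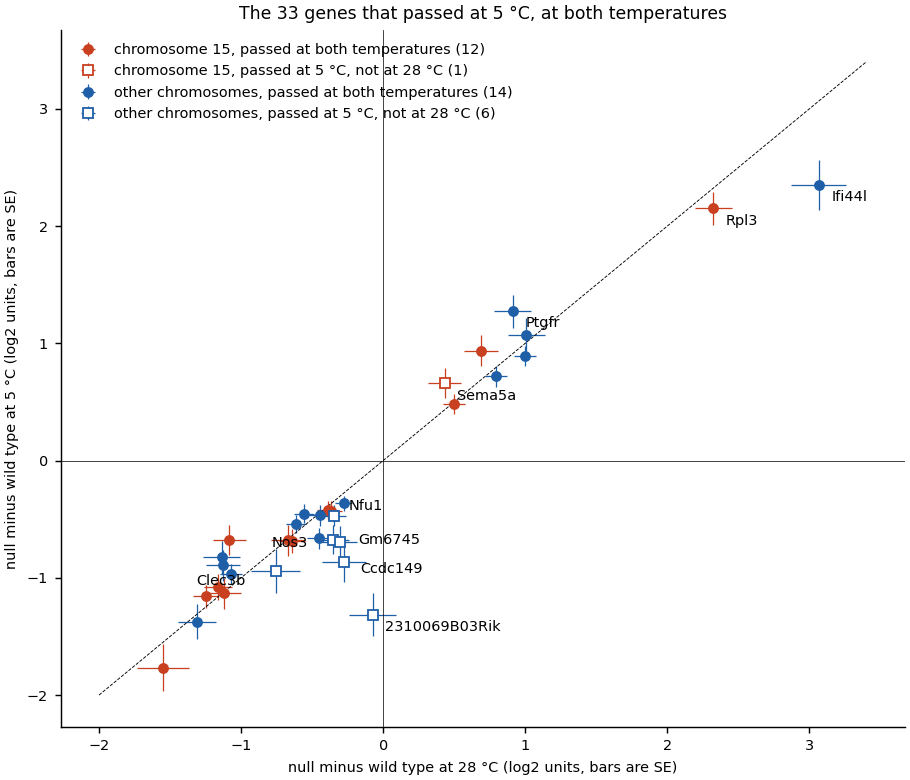
Genotype difference at 5 °C (vertical axis) against that at 28 °C (horizontal axis), null minus wild type in log2 units with SE bars, for the 33 genes called at 5 °C, and the dashed line of equal differences. Filled points passed at both temperatures and open squares at 5 °C only. Most points lie near the line, while 2310069B03Rik lies at −1.32 on the vertical axis and −0.07 on the horizontal.

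The 7 genes called at 5 °C but not at 28 °C were 2310069B03Rik, Nos3, Nfu1, Ccdc149, Gm6745, Clec3b and, on chromosome 15, Sema5a. A call at one temperature only is no difference between them. The test of that difference, the genotype by temperature term, passed for 0 of 22180 genes (0.00%; limma), with 1137 at an unadjusted p under 0.05 (5.13%). For Nos3 the differences were −0.68 in the cold and −0.35 at 28 °C (adjusted p = 0.433), and for Nfu1 −0.47 and −0.34. Clec3b was at −0.94 and −0.76. Of the 7, the farthest apart was 2310069B03Rik, at −1.32 and −0.07, where the term was −1.24 (adjusted p = 0.688). With replicate 3 of the cold wild-type mice left out it did pass (−1.43, adjusted p = 0.0214), the only 1 of the 22 omissions in which any gene did. This RNA rose with cold by 2.42 in wild-type and by 1.18 in null mice. These cold effects share arrays with the genotype differences and add no separate evidence.

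Of the 33 called genes, 14 also changed with cold in wild-type mice, 10 higher and 4 lower, where 16.7% of all genes did (8.35% higher and 8.30% lower). The cold contrast shares the wild-type cold arrays with the contrast that chose the 33. The count for the 33 therefore cannot be weighed against the share of all genes. Ide rose by 0.49 and Alad by 0.48 in the cold, Lars2 by 0.50, Nos3 by 0.58 and Nfu1 by 0.34. Sema5a fell by 0.91, Snord123 by 0.60 and Clec3b by 0.58. The largest cold effect among them was that of 2310069B03Rik, given above. Ifi44l (0.09), Rpl3 (−0.33), Cmtm8 (0.06) and Cyb5r3 (0.10) did not pass with cold. Only 2 of the 33 belonged to any of the 23 gene lists used, Ifi44l and Cox7c.

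No known PPARα target passed in the cold. Of 45 measured, 0 were called by limma at adjusted p under 0.05, where 0.149% of all genes were. The smallest adjusted p was 0.180. Of the 45, 11 had an unadjusted p under 0.05, 3 higher and 8 lower, where 6.65% of all genes did. Below 0 stood 32 and above it 13, with a median of −0.11 against 0.00 for all genes. For 40 of the 45 the 95% interval lay within 1 log2 unit of 0 (97.7% of all genes), and for 26 within 0.5 log2 units. The mean signal of the list ran from 7.63 to 7.86 in null and from 7.77 to 7.95 in wild-type mice, and the groups overlapped. In wild-type mice 28 of the 45 rose with cold and 1 fell, where 8.35% of all genes rose and 8.30% fell. The median cold effects of the list were 0.60 in wild-type and 0.56 in null mice, against 0.01 and 0.00 for all genes.

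The targets with the smallest p were Etfdh, Ehhadh, Acot2 and Vnn1, the first 3 lower and Vnn1 higher in null mice. Etfdh, which passes electrons from fatty acid oxidation to the respiratory chain, read 10.39, 10.16, 10.20, 10.23 and 10.33 in null mice and 10.78, 10.57, 10.60, 10.37 and 10.72 in wild-type mice, a difference of −0.34 (adjusted p = 0.180). Acot2, a mitochondrial acyl-CoA thioesterase, read 10.12, 9.92, 10.00, 9.84 and 9.81 against 10.41, 10.18, 10.36, 10.29 and 10.27, a difference of −0.37 (adjusted p = 0.237). Acot2 was lower in every null mouse than in any wild-type mouse, and Etfdh overlapped only through null replicate 1 and wild-type replicate 4. Ehhadh, the bifunctional enzyme of peroxisomal oxidation, read 7.50, 7.20, 7.15, 7.90 and 7.49 in null mice and 8.67, 8.23, 8.58, 7.71 and 8.05 in wild-type mice, −0.80 (SE 0.20, adjusted p = 0.220). Its groups overlapped through null replicate 4 and wild-type replicate 4. Slc27a2, a long-chain acyl-CoA synthetase and transporter, had the lowest value of the list, at 5.75 ± 0.33 in null and 6.64 ± 0.59 in wild-type mice (SD, n = 5 each; −0.89, adjusted p = 0.295).

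Vnn1, a pantetheinase, had the highest value of the list. It read 6.51, 7.13, 6.03, 6.82 and 7.09 in null mice and 5.96, 4.99, 5.91, 5.43 and 5.60 in wild-type mice. The groups did not overlap but came within 0.07, and the difference of 1.14 (95% interval 0.51 to 1.76) did not pass (adjusted p = 0.237). Vnn1 and Acot2 were the 2 of the 45 whose groups did not overlap, where 1.22% of all genes had none. Fgf21, a fasting and thermogenic hormone, was at 0.49 (adjusted p = 0.714), and Fabp1, the liver fatty acid binding protein, at 0.72 (adjusted p = 0.530) with a wild-type mean of 2.19 that lay below the arrays' lower quartiles. The classical targets Pdk4 (−0.11), Angptl4 (−0.01), Cd36 (0.00), Plin2 (−0.03) and Acadm (−0.04) were close to 0. Creb3l3 and the other members lay between these ends of the range, −0.89 to 1.14.

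**Figure D5:**
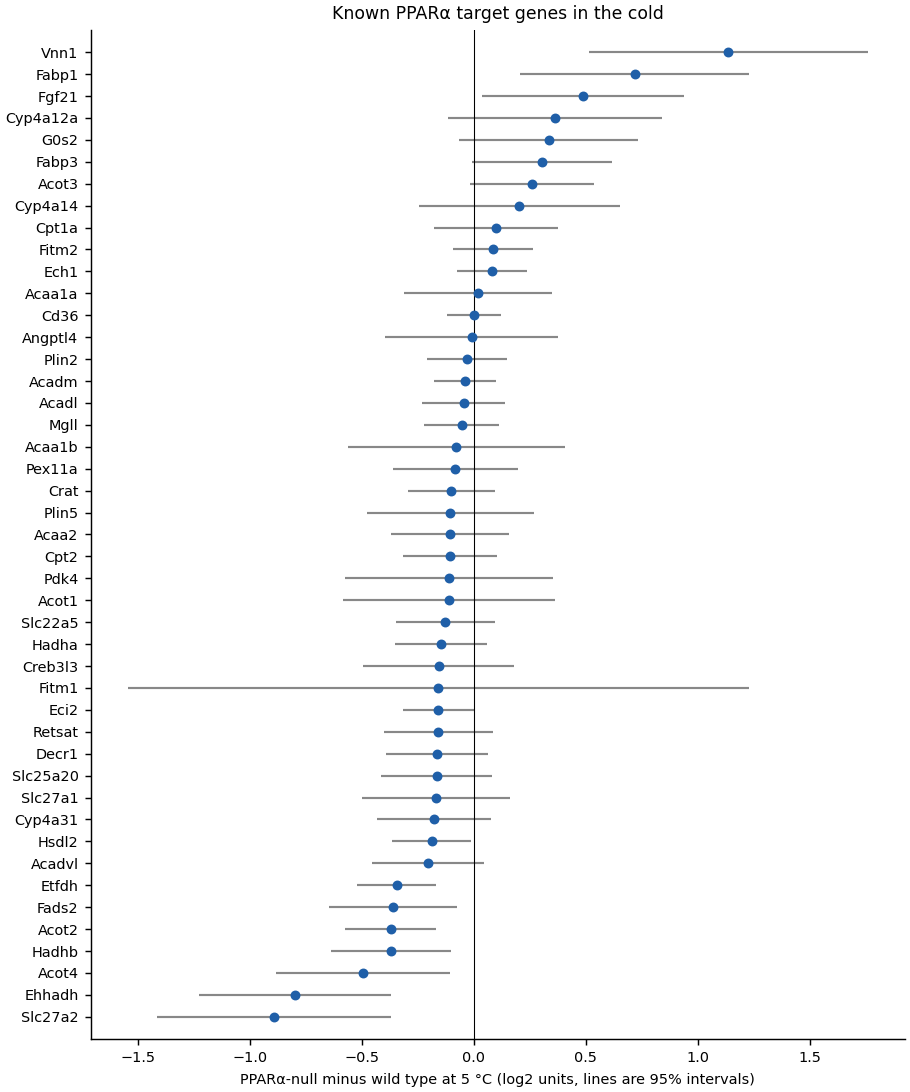
Genotype difference at 5 °C (null minus wild type, log2 units) of 45 PPARα targets, ordered by size, with 95% intervals from limma. None passed at adjusted p under 0.05, 32 lie below 0, and Vnn1 and Slc27a2 are at the ends.

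The PPAR response element, the hexamer AGGTCA repeated after any 1 base, was searched on both strands of 300-base RefSeq promoters (250 before to 50 after the start, GRCm38.p6), allowing up to 2 mismatches. It matched 688 of 16990 promoters of tested genes (4.05%), 6 of 37 for the PPARα targets (16.2%), 0 of 17 for genes called outside chromosome 15 and 0 of 8 for those on it. The 6 target matches are shown to set the element beside genes that did not pass, with the 13 matching bases in capitals and 8 bases on either side, in the direction of the gene. They lie at chr6:71199804-71199832 (plus strand, Fabp1), chr12:84038358-84038386 (plus, Acot4), chr4:86670264-86670292 (minus, Plin2), chr9:108662134-108662162 (plus, Slc25a20), chr10:81092780-81092808 (minus, Creb3l3) and chr5:17835939-17835967 (minus, Cd36). Fabp1 had 1 mismatch and the others 2. A match is a description of letters, and its absence says nothing of binding farther away.
Fabp1: acaatcacTGACCTATGGCCTatatctga
Acot4: ccgaagcaTGACCTTTGGCCGgtctgtgc
Plin2: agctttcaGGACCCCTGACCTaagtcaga
Slc25a20: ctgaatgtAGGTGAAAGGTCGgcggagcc
Creb3l3: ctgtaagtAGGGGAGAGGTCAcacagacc
Cd36: tggttctcTGGCCTCTGACTTacttggat

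None of the genes with these matches passed. Fabp1 stood at 0.72 at a signal close to background, Plin2, which coats lipid droplets, at −0.03, and Cd36, the fatty acid translocase, at 0.00. Slc25a20, the carnitine carrier of the inner mitochondrial membrane, was at −0.17 and Acot4, a peroxisomal thioesterase, at −0.50. Creb3l3, a membrane-bound transcription factor of lipid metabolism, was at −0.16.

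Other groups of fuel genes gave mostly negative values, with small medians. Of 17 mitochondrial fatty acid oxidation genes 0 were called, 13 were below 0, and the median was −0.10. They ran from −0.37 for Hadhb, the thiolase subunit of the trifunctional protein, to 0.10 for Cpt1a, the carnitine palmitoyltransferase of liver, and all 17 intervals lay within 1 log2 unit. Of 18 peroxisomal oxidation genes 0 were called and 14 were below 0, with a median of −0.09. They ran from −0.80 for Ehhadh to 0.08 for Ech1. An unadjusted p under 0.05 was reached by 3, all lower, where 6.65% of all genes had one. Decr2, a peroxisomal dienoyl-CoA reductase, read 8.39, 8.20, 8.18, 8.16 and 8.11 in null mice and 8.92, 8.29, 8.63, 8.44 and 8.73 in wild-type mice, a difference of −0.39 (adjusted p = 0.155). Its groups overlapped through null replicate 1 and wild-type replicate 2. Of 15 de novo lipogenesis genes 14 were below 0, none passed, and the median was −0.14, from −0.50 for Acss2 to 0.01 for Elovl5.

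Thermogenic genes were without a call. Of 24 measured thermogenic and brown-fat genes 0 were called, 13 were above and 11 below 0, and the median was 0.03. They ran from −0.31 for the elongase Elovl3 to 0.52 for the thyroid hormone deiodinase Dio2. All 24 had a 95% interval within 1 log2 unit of 0, but only 10 within 0.5, where 71.6% of all genes did. So smaller differences could not be told from equality for most of them. An unadjusted p under 0.05 was reached by 2, both higher in null mice, where 6.65% of all genes had one. The mean signal of the list ran from 7.12 to 7.46 in null and from 7.12 to 7.41 in wild-type mice. Of 17 PPAR receptors and coregulators 0 passed, with values from −0.29 for Ppara to 0.16 for the coactivator Ppargc1b.

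Fat storage and adipokine genes were also without a call. The 21 genes of triglyceride synthesis and lipolysis had a median of 0.00, from −0.30 for the acyltransferase Gpam to 0.33 for the lipase inhibitor G0s2. Rbp4, the retinol carrier, came nearest among 16 white-adipocyte genes. It read 9.16, 9.03, 9.18, 9.30 and 9.13 in null mice and 9.71, 9.33, 9.38, 9.55 and 9.54 in wild-type mice. Every null mouse was below every wild-type mouse, by 0.03 at the closest. The difference of −0.34 had adjusted p = 0.129.

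The depth of these statements is set by the number of arrays. With 0.149% of all genes called, lists of 7 to 45 genes would seldom hold a call. A count of 0 calls in such a list therefore says little of its members. Across all genes, 97.7% had a 95% interval of the cold genotype difference within 1 log2 unit of 0 and 71.6% within 0.5, and 1476 (6.65%) had an unadjusted p under 0.05. A difference could go uncalled in any single gene, also one above 1 log2 unit, as for Vnn1 (1.14) and for Pnpla3, a lipid hydrolase on chromosome 15, at −1.08 (adjusted p = 0.0712). The p-values measure the spread between separate mice, of which 5 of the 10 housed per cold group were arrayed, and the sources used here do not say how these were picked.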

How the data were processed

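RNA (100 ng per mouse, integrity number above 8) was hybridised to Affymetrix whole-transcript arrays. The deposited values are on the log2 scale, 1 per probe set. The authors used RMA, per the submitters' processing notes, and its version is not given in the sources. They were used as deposited. Of 41345 probe sets, 23521 had 1 gene symbol, 1814 several and 16010 none. For the 1082 genes with several probe sets the brightest on average was used, leaving 22180 genes. Gene order came from RefSeq (GRCm38.p6), where 41 genes had no position.

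All 22 arrays of the 4 groups entered 1 limma fit (3.58.1, R 4.3.3; 18 residual degrees of freedom), with Benjamini-Hochberg adjustment over all genes and calls at adjusted p under 0.05. The method was tested on simulated data. Errors of differences are standard errors from the fit. A list's signal is the mean of its members' log2 values.

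Members and lists were chosen with earlier results of these data known. Named are Ppara, Ucp1 and Nnt, up to 20 called genes on chromosome 15 and 15 in each direction elsewhere, the 5 smallest p of the genotype by temperature term, and up to 4 members per list. Predicted genes, small RNAs and receptors of the Olfr and Vmn families are passed over by the rule, with Gm6745 and Snord123, and a few list members at the ends of a range, named after their values were seen. Alternatives were another scaling, filters on dim genes, probe set averages, trend and robust moderation, array weights, the compared groups alone, an unadjusted threshold, a replicate block, marker covariates and leaving out each array.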

Additional observations from a re-analysis of the deposited data

Results flagged for a closer look

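In 9 of the 144 groups of named genes examined for it (chance alone gives about 1 in 20), a single mouse lay far from the others of its group, measured by its gap relative to the group's whole range. Among cold mice, null replicate 1 was lowest for Gm6745 (3.90, next 4.40), null replicate 4 was lowest for Ppwd1 (7.60, next 7.77), and wild-type replicate 1 was lowest for Rpl3 (7.28, next 7.59). At 28 °C, null replicate 3 was lowest for Nnt (5.62, next 5.88) and highest for Alad (8.58, next 8.34), and null replicate 5 was lowest for Snord123 (5.85, next 6.17). Wild-type replicate 2 at 28 °C was lowest for Cmtm8 (4.79, next 5.18), and wild-type replicate 4 was highest for Dap (9.25, next 8.98) and Lrrfip2 (6.60, next 6.42). In each of these genes but Nnt the cold genotype difference passed, and the isolated cold mouse of Ppwd1 lay on the side of the wild-type mice, still above all of them.

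Probe sets without a gene symbol of their own carried differences too. Of 17824 such probe sets, 11 passed at 5 °C in a fit over all 41345 probe sets (0.0617%), 8 higher and 3 lower in null mice, from −1.14 to 2.22 log2 units. The 17824 comprise 16010 with no symbol and 1814 with several, and which kind each of the 11 belongs to was not examined.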

How the results depend on the processing

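Of the 33 genes called in the cold, 22 stayed called when each of the 22 arrays was left out in turn and 18 in every other alternative that included them, with 0 changes of sign. For 15 of the 18 these were 12 alternatives. Ifi44l, Cmtm8 and D730005E14Rik were tested in 11, since leaving out the dimmest genes removed them. Leaving out single arrays gave 5 to 7 higher and 9 to 18 lower genes outside chromosome 15, 3 to 5 higher and 5 to 11 lower on it, 31 to 45 at 28 °C, 0 to 1 in the genotype by temperature term and 0 PPARα targets. The Ppara difference then ran from −0.49 to −0.16 and that of Ucp1 from 0.02 to 0.10. With the compared groups alone, 5 lower genes outside chromosome 15 passed. At an unadjusted p under 0.001 there were 24 higher and 45 lower genes outside chromosome 15, 7 and 15 on it, 86 at 28 °C, 24 in the temperature term and 2 PPARα targets. Of 93 named genes not called, 4 passed in some alternative (Etfdh, Ehhadh, Decr2 and Rbp4). Same-numbered cold mice did not deviate together (r from −0.12 to −0.02). This check showed no pairing by number and cannot show that none exists. The replicate block gave 6 higher and 11 lower genes outside chromosome 15 and 4 and 7 on it, 34 at 28 °C, 0 in the temperature term and 0 PPARα targets. Arrays have no read depth, and dim genes such as Ifi44l in wild-type mice carry little signal over background.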

Other observations

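Clock genes were not called in the cold: 0 of 16 passed by limma (1 at an unadjusted p under 0.05), 12 were above 0, and the median was 0.17. Their 95% intervals were wide, with 13 of 16 within 1 log2 unit of 0 and 3 within 0.5. Npas2, a partner of the clock factor Bmal1, was the lowest at −0.68, and Dbp, a clock output factor, the highest at 0.45. Of 14 cholesterol synthesis genes 10 were below 0, none passed, and the lowest was Cyp51 at −0.48. Of 17 genes of glucose uptake and glycolysis 13 were below 0, with a median of −0.10, and none passed.

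Of 19 acute phase and inflammation genes 0 were called. Nos2, the inducible nitric oxide synthase, was at −0.28 in the cold and 0.43 at 28 °C, a genotype by temperature term of −0.72 that did not pass (adjusted p = 0.688). H2-Q10, a secreted class I histocompatibility gene with near-identical relatives, was at 0.21 and −0.39, Mctp1 at 0.16 and −0.36, and Swsap1 at −0.33 and 0.33. Nos2, H2-Q10, Mctp1 and Swsap1 had the smallest p of that term after 2310069B03Rik, and none passed. The dimmer H2-Q10 probe set was at −0.12 and −0.13, without the change of sign, and the dimmer Swsap1 probe set at −0.28 and 0.14. Macrophage markers (18 genes) had a median genotype difference of 0.01 in the cold, fibroblast and matrix markers (15) of −0.01, nerve markers (11) of 0.06 and mast cell markers (12) of 0.14, all without a call.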
